A study of Mus musculus with 12 samples.

Results

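The 10 genes described here encode RNA-binding proteins that decide how long cytokine mRNAs last: the tristetraprolin family (Zfp36, Zfp36l1, Zfp36l2), 3 genes of the Regnase family (Zc3h12a, Zc3h12c, Zc3h12d), the roquins (Rc3h1, Rc3h2), HuR (Elavl1) and AUF1 (Hnrnpd). They were chosen by name, and a probe belonged to a gene when its RefSeq transcript carried that gene's symbol. All 10 were among the 13283 genes tested, through 15 of the 56605 distinct probes on the array. Each of the 15 probes was well above background on all 12 arrays, so no member depended on the filter for dim probes. Macrophages from the abdominal cavity of C57/BL6 mice were either GPR15 KO or WT and were cultured in DMEM with 10% serum. They received LPS, the bacterial cell-wall component sensed by TLR4, at 100 ng/ml for 4 h, or PBS for 4 h. This gave 4 groups of 3 single-colour Agilent arrays, named KO LPS, KO PBS, WT LPS and WT PBS. GPR15 is a G protein-coupled receptor best known for guiding T cells to the gut, and the comparisons address how its loss and LPS alter macrophage transcripts.

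Many cytokine mRNAs carry AU-rich elements or short stem-loops in their 3' untranslated regions. Tristetraprolin and its relatives bind AU-rich elements and bring in the CCR4-NOT deadenylase complex, and AUF1 also binds them, whereas HuR competes for such elements and protects the transcript. Regnase-1 cuts stem-loops itself, and the roquins bind stem-loops and recruit deadenylation and decapping factors. In macrophages several of these proteins limit Tnf, Il6 and related mRNAs after TLR stimulation, and some are themselves induced by it.

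Values below are the log2 of a probe's processed signal divided by the array's 75th percentile, and changes are differences on this log2 scale with the standard error (SE) of the limma fit, n = 3 arrays per group. They compare a probe with itself across arrays and do not rank the genes against each other. The 75th percentile lay between 469.6 and 574.1 intensity units, and 48.81% to 57.08% of spots per array were well above background. The arrays came on a pair of slides. Every WT array was on slide 1, every KO LPS array was on slide 2, and the KO PBS arrays were divided, with only replicate 3 on slide 2. KO and WT cells after LPS therefore never shared a slide, and a model with the slide as a term joins them through KO PBS replicate 3 alone. The LPS comparison in KO cells was also partly one between slides, since only KO PBS replicate 3 shared slide 2 with KO LPS. Gpr15 was well above background on 0 of 12 arrays, so the KO label could not be checked. Xist was well above background on 0 of 6 KO arrays and 6 of 6 WT arrays, and the Y-linked Ddx3y on 6 of 6 KO arrays and 0 of 6 WT arrays. The labels give no sex, and each KO against WT difference below is also one between Y-positive and Xist-positive cells. All 12 macrophage markers, such as Adgre1 and Csf1r, were well above background in every group. The labels number the replicates without saying whether they came from separate mice, so p-values measure the spread between these arrays, which may be technical.

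LPS changed 9 of the 10 genes in KO cells and 9 in WT cells at an adjusted p below 0.05 (limma, Benjamini-Hochberg over all 13283 genes). In each genotype 7 rose and 2 fell, and these were the same genes with the same directions. Zc3h12a rose the most, Zfp36l1 came next, Zfp36l2 and Zc3h12d fell, and Zc3h12c did not pass. Across all genes, 67.0% were called for LPS in KO cells, 35.1% higher and 32.0% lower, and 64.7% in WT cells, 33.7% higher and 31.0% lower. LPS and PBS arrays did not overlap for 10 of the 10 genes in KO cells and for 9 in WT cells, against 72.1% of all genes in KO cells and 69.4% in WT cells. Calls the same way in both genotypes covered 90% of these genes and 53.2% of all genes. The median change was 0.42 in KO cells and 0.29 in WT cells, against 0.04 in KO cells and 0.03 in WT cells over all genes. Regardless of sign, the median size was 0.57 in KO cells and 0.58 in WT cells, against 0.39 in KO cells and 0.37 in WT cells over all genes. Summed mast-cell markers were also higher with LPS, at 190 to 207 in KO LPS, 99.8 to 117 in KO PBS, 242 to 266 in WT LPS and 112 to 152 in WT PBS. Of 9 measured, 4 rose, 1 fell and 4 were not called in KO cells, and 3 rose, 2 fell and 4 were not called in WT cells. With the slide as a term 1 rose and 0 fell in KO cells, and 4 rose and 2 fell in WT cells. Of all 13283 genes, that fit called 3678 higher and 3357 lower in KO cells, and 4818 and 4349 in WT cells. The part of mast cells in the LPS changes was not tested. Both LPS comparisons and both genotype comparisons draw on the same 12 arrays and are not independent.

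**Figure D1:**
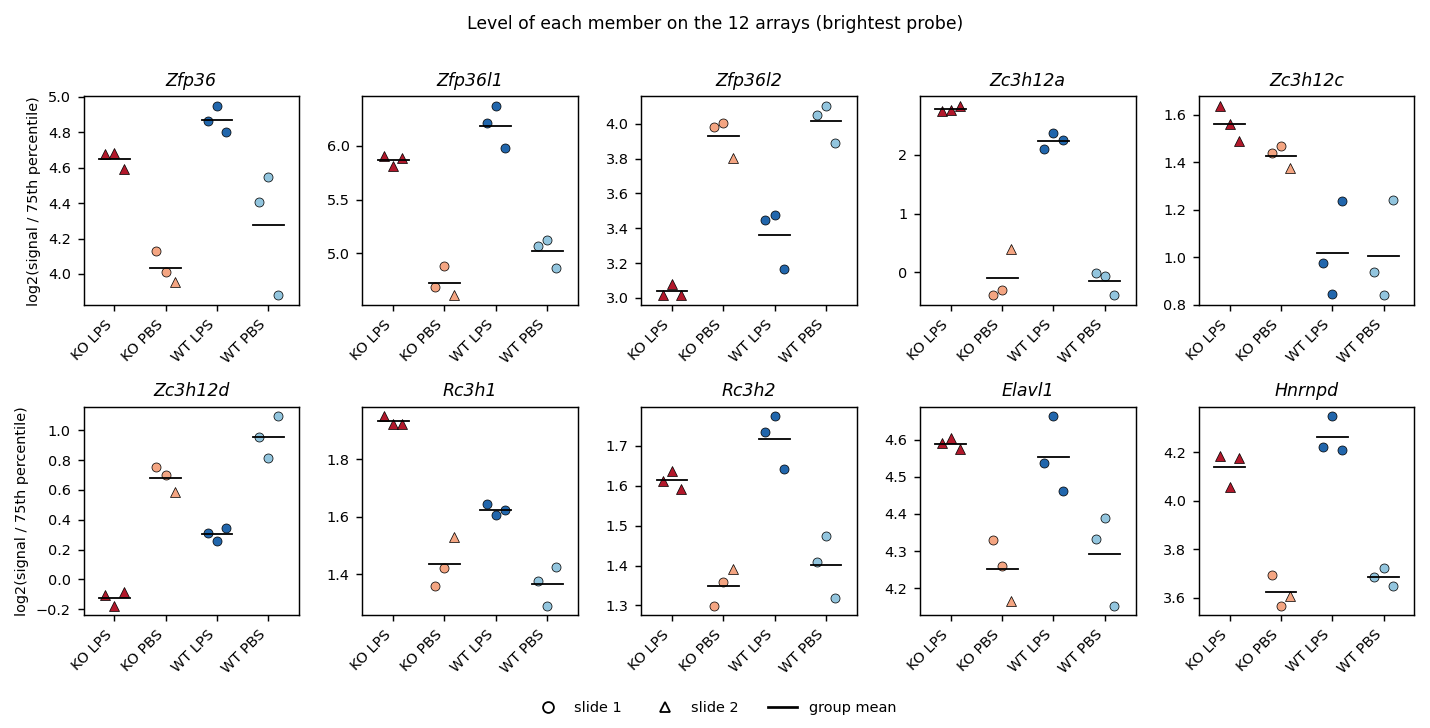
Level of each of the 10 genes on the 12 arrays, as log2(signal / 75th percentile) of its brightest probe, with each vertical axis on its own range. Groups run KO LPS, KO PBS, WT LPS and WT PBS, circles are slide 1, triangles slide 2, and bars are group means. Zc3h12a lies between 2.10 and 2.84 on LPS arrays and between -0.40 and 0.40 on PBS arrays, while Zfp36l2 and Zc3h12d are lower with LPS.

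Zfp36 encodes tristetraprolin, the founding zinc-finger protein of AU-rich element decay. In KO cells its values were 4.68, 4.68 and 4.59 with LPS, against 4.13, 4.01 and 3.95 with PBS. WT cells gave 4.86, 4.95 and 4.80 with LPS, against 4.41, 4.55 and 3.88 with PBS. The LPS arrays lay above the PBS arrays of the same genotype, and WT PBS replicate 3 lay well below the other WT PBS arrays. Zfp36 rose by 0.62 ± 0.13 in KO cells (1.54-fold, limma adjusted p = 0.00133) and by 0.59 ± 0.13 in WT cells (1.51-fold, adjusted p = 0.00173). By mean level the order was WT LPS, KO LPS, WT PBS and KO PBS, and among neighbours in that order the arrays of WT PBS and KO PBS overlapped.

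Zfp36l1, a paralog that also recruits deadenylases to AU-rich mRNAs, rose by more. Its brighter probe read 5.90, 5.81 and 5.88 in KO cells with LPS, against 4.69, 4.88 and 4.61 with PBS. In WT cells it read 6.21, 6.37 and 5.98 with LPS, against 5.07, 5.13 and 4.87 with PBS. The groups did not overlap in either genotype. The rise was 1.14 ± 0.10 in KO cells (2.20-fold, limma adjusted p = 1.33e-06) and 1.16 ± 0.10 in WT cells (2.24-fold, adjusted p = 9.04e-07). Means ran in the same order as for Zfp36, with WT PBS and KO PBS again overlapping.

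A dimmer probe of Zfp36l1, assigned to the same transcript, did not show this rise. It read 1.48, 1.49 and 1.41 in KO cells with LPS, against 0.93, 0.96 and 1.68 with PBS, and 0.63, 0.59 and 0.78 in WT cells with LPS, against 0.88, 0.88 and 1.06 with PBS. Its 4 highest values were those of the 4 arrays on slide 2. The change with LPS was 0.27 ± 0.16 in KO cells (limma adjusted p = 0.157 over all kept probes) and -0.27 ± 0.16 in WT cells (adjusted p = 0.16). Probe sequences were not used here.

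**Figure D2:**
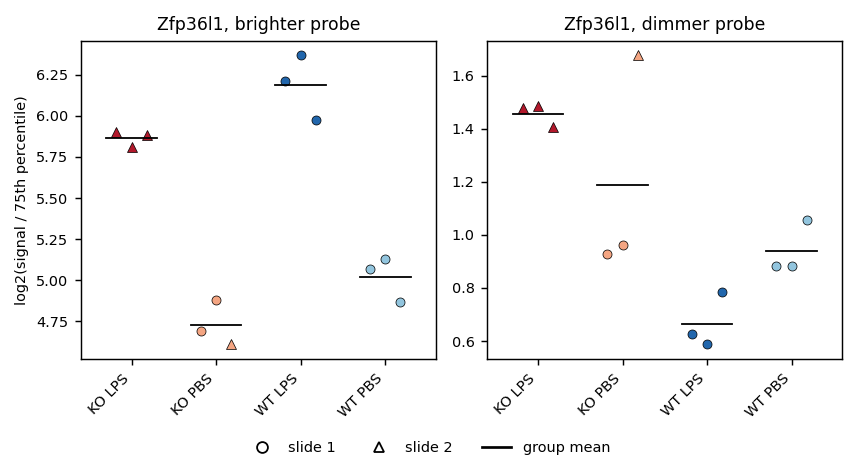
Both probes of Zfp36l1 on the 12 arrays, as log2(signal / 75th percentile), each panel on its own range. Groups run KO LPS, KO PBS, WT LPS and WT PBS, circles are slide 1, triangles slide 2, and bars are group means. The brighter probe parts LPS from PBS in both genotypes, whereas the dimmer probe is highest on the slide 2 arrays, at 1.41 to 1.68.

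Zfp36l2, the third member of the family, went the other way. Its values were 3.01, 3.08 and 3.01 in KO cells with LPS, against 3.98, 4.00 and 3.80 with PBS. In WT cells they were 3.45, 3.47 and 3.16 with LPS, against 4.05, 4.10 and 3.89 with PBS. Every LPS array lay below every PBS array. Zfp36l2 fell by 0.89 ± 0.09 in KO cells (1.86-fold, limma adjusted p = 2.78e-06) and fell by 0.65 ± 0.09 in WT cells (1.57-fold, adjusted p = 3.29e-05). Means ran from WT PBS through KO PBS and WT LPS to KO LPS, and of these neighbours WT PBS and KO PBS overlapped.

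Zc3h12a encodes Regnase-1, the endoribonuclease that cleaves stem-loops of Il6, Il12b and its own mRNA. It read 2.74, 2.77 and 2.84 in KO cells with LPS, against -0.38, -0.31 and 0.40 with PBS. WT cells gave 2.10, 2.38 and 2.25 with LPS, against -0.02, -0.06 and -0.40 with PBS. The groups lay far apart, and KO PBS replicate 3, the KO PBS array on slide 2, was the highest of the 6 PBS arrays. The rise was 2.88 ± 0.17 in KO cells (7.36-fold, limma adjusted p = 5.27e-08) and 2.40 ± 0.17 in WT cells (5.28-fold, adjusted p = 1.77e-07). Within slide 2, KO LPS exceeded KO PBS replicate 3 by 2.38. Of all genes, 99.16% had a change of at most this size in KO cells and 98.25% in WT cells. KO LPS had the highest mean, then WT LPS, KO PBS and WT PBS, the last pair overlapping.

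Zc3h12c encodes Regnase-3, a relative with the same type of nuclease domain. Values were 1.64, 1.56 and 1.49 in KO cells with LPS, against 1.44, 1.47 and 1.37 with PBS, and 0.98, 0.84 and 1.24 in WT cells with LPS, against 0.94, 0.84 and 1.24 with PBS. The KO groups did not overlap and the WT groups did. The change with LPS was 0.14 ± 0.11 in KO cells (limma adjusted p = 0.291) and 0.01 ± 0.11 in WT cells (adjusted p = 0.92). A second, dimmer probe gave 0.30 ± 0.12 in KO cells (adjusted p = 0.0542) and 0.26 ± 0.12 in WT cells (adjusted p = 0.0939).

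Zc3h12d encodes Regnase-4, described mainly in lymphocytes. It read -0.11, -0.18 and -0.09 in KO cells with LPS, against 0.75, 0.70 and 0.59 with PBS. In WT cells it read 0.31, 0.25 and 0.35 with LPS, against 0.96, 0.81 and 1.10 with PBS. No 2 of the 4 groups overlapped, with WT PBS highest, then KO PBS, WT LPS and KO LPS. Zc3h12d fell by 0.80 ± 0.07 in KO cells (1.75-fold, limma adjusted p = 1.7e-06) and fell by 0.65 ± 0.07 in WT cells (1.57-fold, adjusted p = 8.55e-06). Its dimmer probe fell by 0.59 ± 0.11 in KO cells (adjusted p = 0.000699) and fell by 0.64 ± 0.11 in WT cells (adjusted p = 0.000394).

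B-cell markers moved along with Zc3h12d and with Zfp36l2, both lowest in KO LPS and highest in WT PBS. Of 12 listed B-cell markers 11 had a probe, and all 11 were well above background in every group, none at 0. Their summed level, in multiples of the array's 75th percentile, was 61 to 62 in KO LPS, 130 to 136 in KO PBS, 76 to 89.8 in WT LPS and 154 to 194 in WT PBS. With LPS, 9 of 11 fell in KO cells and 8 of 11 in WT cells, against 32.0% and 31.0% of all genes. Cd79b, of the B-cell receptor, fell by 2.44 in KO cells and fell by 2.09 in WT cells. A fall with LPS was not particular to B-cell markers. Of 12 macrophage markers, 8 fell and 2 rose in KO cells, and 8 fell and 3 rose in WT cells. Their median change was -0.40 in KO cells and -0.43 in WT cells. Summed T-cell markers lay between 9.71 and 12.9. The part of B cells in the differences of Zc3h12d and Zfp36l2 was not tested, and fewer cells of a type and less RNA per cell cannot be told apart in bulk RNA.

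Rc3h1 encodes Roquin-1, a stem-loop binding protein that limits Icos, Tnfrsf4 and Tnf mRNAs. Its values were 1.95, 1.93 and 1.92 in KO cells with LPS, against 1.36, 1.42 and 1.53 with PBS. WT cells gave 1.65, 1.61 and 1.62 with LPS, against 1.38, 1.29 and 1.43 with PBS. LPS arrays were higher without overlap in both genotypes. The rise was 0.50 ± 0.05 in KO cells (1.41-fold, limma adjusted p = 6.43e-06) and 0.26 ± 0.05 in WT cells (1.20-fold, adjusted p = 0.00102). Within slide 2, KO LPS exceeded KO PBS replicate 3 by 0.40. KO LPS was highest, then WT LPS, KO PBS and WT PBS, and the last pair overlapped.

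Rc3h2 encodes Roquin-2, its paralog. It read 1.61, 1.64 and 1.59 in KO cells with LPS, against 1.30, 1.36 and 1.39 with PBS, and 1.74, 1.77 and 1.64 in WT cells with LPS, against 1.41, 1.48 and 1.32 with PBS. Again the LPS arrays lay above the PBS arrays. Rc3h2 rose by 0.26 ± 0.05 in KO cells (1.20-fold, limma adjusted p = 0.00113) and by 0.32 ± 0.05 in WT cells (1.25-fold, adjusted p = 0.000273). A dimmer probe rose by 0.28 ± 0.05 in KO cells (adjusted p = 0.000833) and by 0.15 ± 0.05 in WT cells (adjusted p = 0.033). Order by mean was WT LPS, KO LPS, WT PBS and KO PBS, with an overlap between the PBS groups.

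Elavl1 encodes HuR, which stabilises AU-rich mRNAs. Its values were 4.59, 4.60 and 4.57 in KO cells with LPS, against 4.33, 4.26 and 4.17 with PBS, and 4.54, 4.66 and 4.46 in WT cells with LPS, against 4.33, 4.39 and 4.15 with PBS. The LPS arrays were higher without overlap, by small amounts, while KO and WT overlapped within each treatment. The rise was 0.34 ± 0.07 in KO cells (1.26-fold, limma adjusted p = 0.00111) and 0.26 ± 0.07 in WT cells (1.20-fold, adjusted p = 0.00555). Under quantile normalization the WT change was 0.05 and was not called (adjusted p = 0.472).

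Hnrnpd encodes AUF1, whose isoforms bind AU-rich elements and mostly promote decay. It read 4.18, 4.06 and 4.18 in KO cells with LPS, against 3.69, 3.57 and 3.61 with PBS, and 4.22, 4.35 and 4.21 in WT cells with LPS, against 3.69, 3.72 and 3.65 with PBS. LPS and PBS arrays lay about as far apart in both genotypes. Hnrnpd rose by 0.52 ± 0.06 in KO cells (1.43-fold, limma adjusted p = 5.84e-06) and by 0.58 ± 0.06 in WT cells (1.49-fold, adjusted p = 2.01e-06). Its dimmer probe rose by 0.53 ± 0.05 in KO cells and by 0.55 ± 0.05 in WT cells. Mean levels ran WT LPS, KO LPS, WT PBS and KO PBS, the PBS groups overlapping.

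**Figure D3:**
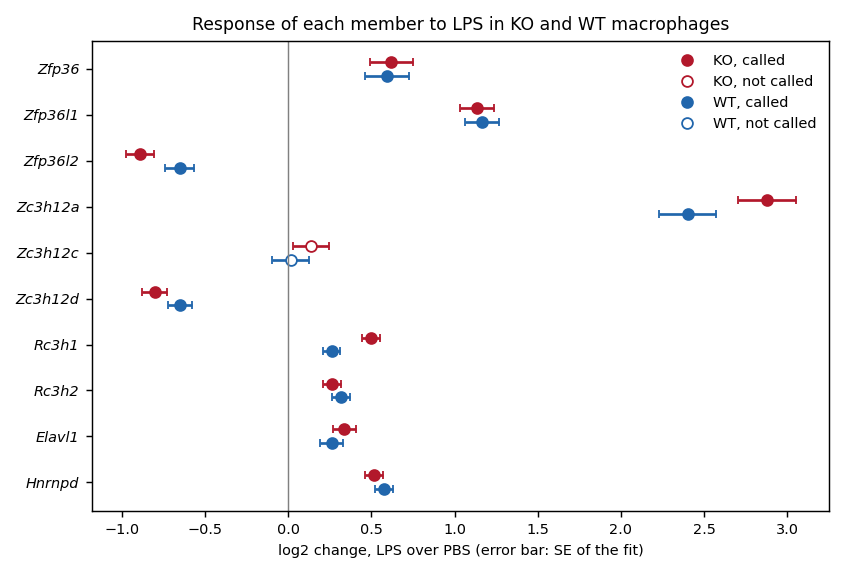
Change with LPS of each gene in KO cells (red, upper point of each pair) and WT cells (blue, lower point), as log2 of LPS over PBS with the SE of the fit. Filled points passed an adjusted p of 0.05. Zc3h12a stands at 2.88 in KO cells and 2.40 in WT cells, Zfp36l2 and Zc3h12d lie left of 0, and Zc3h12c is the open pair near 0.

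The DNA just upstream of 4 of these genes is shown because 3 of them, Zfp36, Zfp36l1 and Zc3h12a, had the largest rises on the log2 scale in KO cells and in WT cells, and Rc3h1 rose with them. Each window is the 250 bases before the RefSeq gene start, written 5' to 3' on the gene's strand in build GRCm38.p6 and lying wholly outside the annotated gene. The positions are chr7:28379229-28379478 (minus strand), chr12:80113014-80113263 (minus strand), chr4:125127882-125128131 (minus strand) and chr1:160906161-160906410 (plus strand). Capitals mark every match, on either strand, to 8 motifs: the NF-kB site, the CArG box bound by SRF, TGANTCA of AP-1, TGACGTCA of CREB, the interferon-stimulated response element, the TATA box written TATAAA, the ETS family site written GGAAGTG, and the GC box written CCCCGCCC. No 2 matches overlap in these windows.
Zfp36: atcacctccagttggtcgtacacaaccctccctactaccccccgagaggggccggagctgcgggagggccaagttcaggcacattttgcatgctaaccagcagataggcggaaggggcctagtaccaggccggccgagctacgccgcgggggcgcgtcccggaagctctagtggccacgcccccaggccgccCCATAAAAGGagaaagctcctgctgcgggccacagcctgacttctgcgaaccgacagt
Zfp36l1: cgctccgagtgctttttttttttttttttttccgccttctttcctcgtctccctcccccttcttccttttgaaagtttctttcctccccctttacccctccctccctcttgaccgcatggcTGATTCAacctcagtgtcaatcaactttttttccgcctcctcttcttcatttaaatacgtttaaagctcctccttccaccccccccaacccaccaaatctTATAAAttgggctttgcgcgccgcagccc
Zc3h12a: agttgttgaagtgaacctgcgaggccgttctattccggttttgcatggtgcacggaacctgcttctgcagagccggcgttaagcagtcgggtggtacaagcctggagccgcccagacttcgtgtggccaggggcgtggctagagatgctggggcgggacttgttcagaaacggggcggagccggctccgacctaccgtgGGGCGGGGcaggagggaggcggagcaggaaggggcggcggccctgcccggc
Rc3h1: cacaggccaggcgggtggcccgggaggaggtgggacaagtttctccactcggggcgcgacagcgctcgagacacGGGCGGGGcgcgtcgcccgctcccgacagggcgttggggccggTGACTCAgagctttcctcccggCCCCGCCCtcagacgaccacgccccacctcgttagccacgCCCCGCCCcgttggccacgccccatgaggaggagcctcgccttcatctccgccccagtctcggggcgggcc
Zfp36 holds a CArG box, CCATAAAAGG, 58 to 49 bases before the start, a motif found in 1.47% of 32851 windows of this length. Zfp36l1 holds TGATTCA 129 to 123 bases before the start, where TGANTCA occurs in 6.75% of windows, and TATAAA at 29 to 24, which occurs in 12.4%. Zc3h12a holds a GC box at 51 to 44 bases, a motif of 16.1% of windows. Rc3h1 holds TGACTCA at 133 to 127 bases and 3 GC boxes. The letters of the NF-kB site, present in 3.9% of windows, were not in these 4. Zfp36l2 had no window in the table, and the windows of the other members reach into their annotated genes.

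Whether KO cells differed from WT cells before stimulation was asked in PBS, where 2 of the 10 genes were called, 1 higher and 1 lower, against 14.1% of all genes, 8.06% higher and 6.05% lower. Zc3h12c was higher, by 0.42 ± 0.11 (1.34-fold, limma adjusted p = 0.026), with a mean of 1.43 ± 0.05 in KO PBS and 1.01 ± 0.21 in WT PBS (SD, n = 3 each). Its dimmer probe was higher by 0.46 ± 0.12 (adjusted p = 0.0354). Zc3h12d was lower, with a difference of -0.27 ± 0.07 (1.21-fold, adjusted p = 0.0298) and means of 0.68 ± 0.09 in KO PBS and 0.95 ± 0.14 in WT PBS (SD). Its dimmer probe differed by -0.16 ± 0.11 (adjusted p = 0.385). For these 2 genes the arrays of the genotypes did not overlap, as for 30.5% of all genes, and the other 8 overlapped. B-cell markers were lower alongside Zc3h12d in 6 of 11 cases and higher in 0.

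These calls rested on few arrays. Leaving out WT PBS replicate 1 or 2, or KO PBS replicate 1 or 2, ended the call of Zc3h12c, with limma adjusted p between 0.0681 and 0.102. Leaving out WT PBS replicate 1 or 3, or KO PBS replicate 2 or 3, ended that of Zc3h12d, with adjusted p between 0.0595 and 0.0921. With the slide as a term Zc3h12c kept its call, at 0.45 ± 0.13 (adjusted p = 0.0394), and Zc3h12d did not, at -0.23 ± 0.08 (adjusted p = 0.068). On slide 1 alone neither passed, at 0.45 with adjusted p = 0.0885 and -0.23 with adjusted p = 0.129.

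The tristetraprolin genes were lower in KO PBS by the mean of their brightest probe, without a call. Zfp36 differed by -0.25 ± 0.13 (limma adjusted p = 0.23) and Zfp36l1 by -0.30 ± 0.10 (adjusted p = 0.0749). The dimmer probe of Zfp36l1 went the other way, at 0.25 ± 0.16 (adjusted p = 0.338). On slide 1 alone Zfp36 differed by -0.21 (adjusted p = 0.485) and the brighter probe of Zfp36l1 by -0.24 (adjusted p = 0.273). Without WT PBS replicate 3, the low array for Zfp36, the differences were -0.45 (adjusted p = 0.00119) and -0.37 (adjusted p = 0.0287), both called. Without WT LPS replicate 3, which alters the shared spread and not the difference, Zfp36l1 was also called, with adjusted p = 0.0368, as it was with all arrays under quantile normalization, at -0.34 (adjusted p = 0.0259). For Zfp36l2, Zc3h12a, Rc3h1, Rc3h2, Elavl1 and Hnrnpd the differences lay between -0.09 and 0.07.

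After LPS 6 of the 10 genes were called between KO and WT cells, 3 higher and 3 lower, against 39.5% of all genes. The 3 arrays of each genotype did not overlap for 9 of the 10 genes and for 58.4% of all genes. Zc3h12a was higher in KO LPS, by 0.54 ± 0.17 (1.45-fold, limma adjusted p = 0.0285), with means of 2.78 ± 0.05 in KO LPS and 2.24 ± 0.14 in WT LPS (SD, n = 3 each). Zc3h12c was higher by 0.54 ± 0.11 (1.46-fold, adjusted p = 0.00313), and its dimmer probe by 0.50 ± 0.12 (adjusted p = 0.00887). Rc3h1 was higher by 0.31 ± 0.05 (1.24-fold, adjusted p = 0.00145), at 1.93 ± 0.02 in KO LPS and 1.63 ± 0.02 in WT LPS (SD).

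Lower in KO LPS were Zfp36l1, Zfp36l2 and Zc3h12d. The brighter probe of Zfp36l1 differed by -0.32 ± 0.10 (1.25-fold, limma adjusted p = 0.026), whereas its dimmer probe was higher by 0.79 ± 0.16 (adjusted p = 0.00325) and the mean of both probes by 0.23 (adjusted p = 0.0223). Zfp36l2 differed by -0.33 ± 0.09 (1.25-fold, adjusted p = 0.0123). Zc3h12d differed by -0.43 ± 0.07 (1.34-fold, adjusted p = 0.00138), its dimmer probe by -0.12 ± 0.11 (adjusted p = 0.43). B-cell markers, which ran in the order of Zfp36l2 and Zc3h12d, were lower in KO LPS in 7 of 11 cases and higher in 0. Of all genes 19.5% were lower and 20.0% higher. With the slide as a term 2 B-cell markers were lower and 0 higher, and 431 of all 13283 genes were lower and 345 higher. Zfp36, at -0.22 ± 0.13, Rc3h2, at -0.10 ± 0.05, Elavl1, at 0.03 ± 0.07, and Hnrnpd, at -0.12 ± 0.06, were not called. Zfp36 was called without WT PBS replicate 3 (adjusted p = 0.0138), when the LPS groups were fitted alone (adjusted p = 0.00963) and with the replicate block (adjusted p = 0.0133), where 7 genes were called.

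None of the 6 calls was kept with the slide as a term, a fit that called 776 genes in all against 5242 without it. Zc3h12a then differed by -0.20 ± 0.18 (limma adjusted p = 0.544), the opposite sign. Zc3h12c differed by 0.62 ± 0.20 (adjusted p = 0.105), Rc3h1 by 0.17 ± 0.08 (adjusted p = 0.225) and Zc3h12d by -0.29 ± 0.12 (adjusted p = 0.197). Zfp36l1 and Zfp36l2 differed by -0.15 ± 0.18 and -0.13 ± 0.14. Slide and genotype cannot be told apart among the LPS arrays themselves. Leaving out 1 array also ended some calls. Zfp36l1 was lost without WT LPS replicate 1 or 2 or any KO LPS replicate (adjusted p 0.0541 to 0.105), and Zc3h12a without WT LPS replicate 1 or 3 or any KO LPS replicate (adjusted p 0.0535 to 0.097). Zfp36l2 was lost without WT LPS replicate 1 or 2 (adjusted p = 0.0515 and 0.0526). Zc3h12c, Zc3h12d and Rc3h1 kept their calls in each of the 12 fits that left out 1 array.

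**Figure D4:**
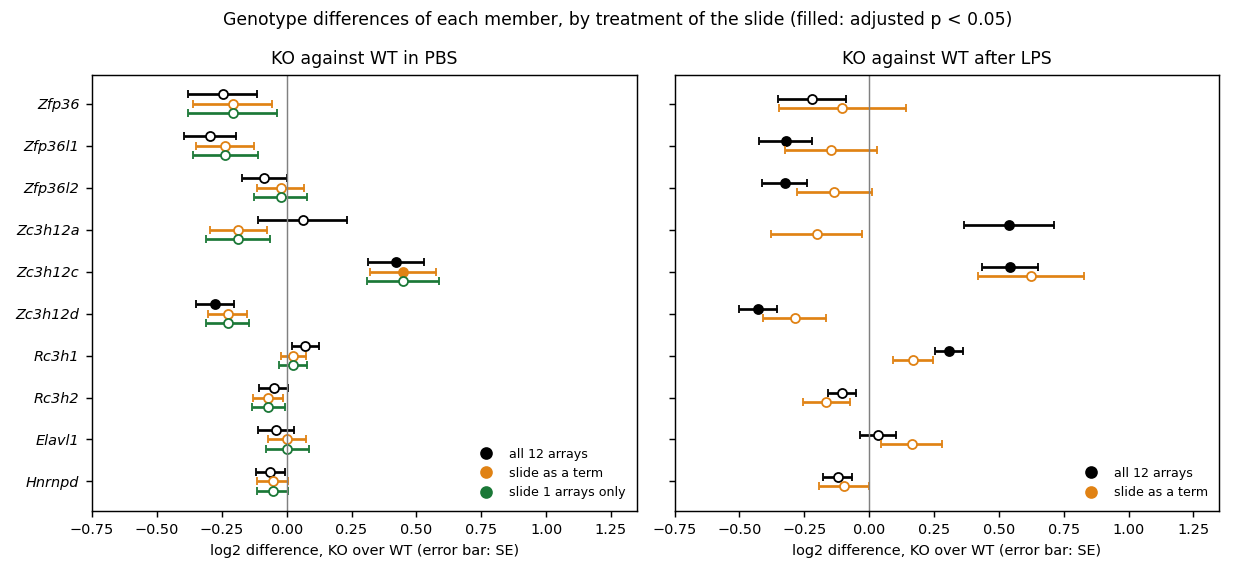
Difference of KO from WT for each gene in PBS (left) and after LPS (right), as log2 of KO over WT with the SE. Black is the fit of all 12 arrays, orange adds the slide as a term, green uses slide 1 alone, and filled points passed an adjusted p of 0.05. After LPS 6 black points are filled and 0 orange ones, and Zc3h12a changes side, from 0.54 in black to -0.20 in orange.

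Whether LPS acted differently in the genotypes was tested as the interaction, the LPS effect in KO cells less that in WT cells. It was called for 0 of the 10 genes, against 4.31% of all genes, 0.926% with a higher and 3.39% with a lower LPS effect in KO cells. At an unadjusted p under 0.05 the count was 1, Rc3h1, at 0.24 ± 0.08 (limma adjusted p = 0.112). Zc3h12a had an interaction of 0.48 ± 0.25 (adjusted p = 0.291) and Zfp36l2 of -0.24 ± 0.12 (adjusted p = 0.292). The other 7 lay between -0.15 and 0.12. Without KO PBS replicate 3 both Zc3h12a, at 0.72 (adjusted p = 0.00714), and Rc3h1, at 0.28 (adjusted p = 0.0115), were called. With the slide as a term the same interactions were -0.02 (adjusted p = 0.981) and 0.14 (adjusted p = 0.432).

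The other proteins of the decay pathway were described by lists of related genes. Over all genes 35.1% rose and 32.0% fell with LPS in KO cells, and 33.7% rose and 31.0% fell in WT cells. Of 26 measured further proteins that bind AU-rich elements or stem-loops, 15 rose and 4 fell with LPS in KO cells, and 17 rose and 3 fell in WT cells. Arid5a, which protects Il6 mRNA against Regnase-1, rose by 1.24 ± 0.06 in KO cells and 1.10 ± 0.06 in WT cells. N4bp1, an endonuclease cleaved by MALT1, rose by 0.98 ± 0.07 in KO cells and 1.23 ± 0.07 in WT cells. Hnrnpc rose by 0.56 in KO cells and 0.65 in WT cells, Hnrnpdl, a paralog of Hnrnpd, by 0.50 in KO cells and 0.48 in WT cells, and Hnrnpab by 0.44 in KO cells and 0.62 in WT cells. Igf2bp2, of a family that binds and shields mRNAs, fell by 0.54 in KO cells and fell by 0.79 in WT cells. Median change was 0.23 in KO cells and 0.31 in WT cells.

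Among 20 genes of CCR4-NOT and other deadenylation factors, 10 rose and 0 fell with LPS in KO cells, and 12 rose and 1 fell in WT cells. Of all genes, 67.0% were called in KO cells, 35.1% rising and 32.0% falling. In WT cells 64.7% were called, 33.7% rising and 31.0% falling. Noct, a clock-linked gene long described as a deadenylase, rose by 1.99 ± 0.11 in KO cells (3.98-fold) and 2.31 ± 0.11 in WT cells (4.97-fold). Cnot1, the scaffold of the complex, rose by 0.49 ± 0.05 in KO cells and 0.25 ± 0.05 in WT cells, Cnot2 by 0.30 ± 0.04 in each, and Cnot11 by 0.31 in KO cells and 0.41 in WT cells. Of 19 decapping and 5'-to-3' decay genes, 11 rose and 1 fell in KO cells, and 14 rose and 1 fell in WT cells. The helicase gene Ddx6 rose by 0.53 ± 0.05 in KO cells and 0.41 ± 0.05 in WT cells. Dcp1a, Lsm7 and Lsm14a rose by 0.49, 0.39 and 0.36 in KO cells and by 0.46, 0.28 and 0.42 in WT cells. Eif4enif1, which links decapping to translational repression, rose by 0.63 ± 0.07 in KO cells and 0.58 ± 0.07 in WT cells. The scavenger decapping enzyme gene Dcps fell by 0.18 in KO cells and fell by 0.35 in WT cells.

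Of 16 genes of the cytoplasmic exosome and its helpers, 11 rose and 1 fell in KO cells, and 11 rose and 2 fell in WT cells. The shares over all genes were 35.1% rising and 32.0% falling in KO cells, and 33.7% and 31.0% in WT cells. Dis3, an exosome ribonuclease found mainly in the nucleus, rose by 1.06 ± 0.06 in KO cells (2.09-fold) and 0.99 ± 0.06 in WT cells (1.98-fold). Dis3l, its cytoplasmic counterpart, changed by -0.05 ± 0.08 in KO cells (limma adjusted p = 0.639) and fell by 0.31 ± 0.08 in WT cells (adjusted p = 0.00632). Exosc6 rose by 0.74 ± 0.06 in KO cells and 0.91 ± 0.06 in WT cells, and Exosc1 by 0.62 ± 0.04 in KO cells and 0.68 ± 0.04 in WT cells. Exosc9 rose by 1.56 ± 0.14 in KO cells and 1.65 ± 0.14 in WT cells, and Wdr61, of the Ski complex, by 0.54 ± 0.04 in KO cells and 0.40 ± 0.04 in WT cells.

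Enzymes known to act on the 10 proteins moved both ways, with 10 of 18 rising and 4 falling in each genotype. All genes gave 35.1% rising and 32.0% falling in KO cells, and 33.7% and 31.0% in WT cells. Malt1, the protease that cleaves Regnase-1 and the roquins, rose by 1.38 ± 0.10 in KO cells and 0.97 ± 0.10 in WT cells. Mapk14, the p38 kinase upstream of tristetraprolin phosphorylation, fell by 1.15 in KO cells and fell by 1.29 in WT cells. Ppp2ca, a catalytic subunit of the phosphatase that reverses it, rose by 0.62 in KO cells and 0.56 in WT cells. Akt1, a kinase reported to phosphorylate Zfp36l1 protein, fell by 0.65 in KO cells and fell by 0.60 in WT cells.

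All 18 measured transcripts described as targets of these proteins rose with LPS in both genotypes. Of all genes 35.1% rose in KO cells and 33.7% in WT cells. The median change of the targets was 2.19 in KO cells and 1.89 in WT cells. Of these, 1 in KO cells and 2 in WT cells had no PBS array well above background. They passed the filter through LPS arrays only, so their rise followed from the filter. Il2, also listed, did not pass it. Holding the genes undetected in PBS at their lower bound gave medians of 2.07 in KO cells and 1.58 in WT cells. Csf2 rose by 4.62 ± 0.19 in KO cells and 4.33 ± 0.19 in WT cells, Il10 by 2.64 ± 0.10 in KO cells and 2.73 ± 0.10 in WT cells, and Ccl3 by 2.29 ± 0.09 in KO cells and 1.97 ± 0.09 in WT cells. Il1b rose by 3.16 ± 0.14 in KO cells and 2.52 ± 0.14 in WT cells, and Cxcl1 by 1.81 ± 0.11 in KO cells and 2.25 ± 0.11 in WT cells. These are steady-state levels, which do not separate synthesis from decay.

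**Figure D5:**
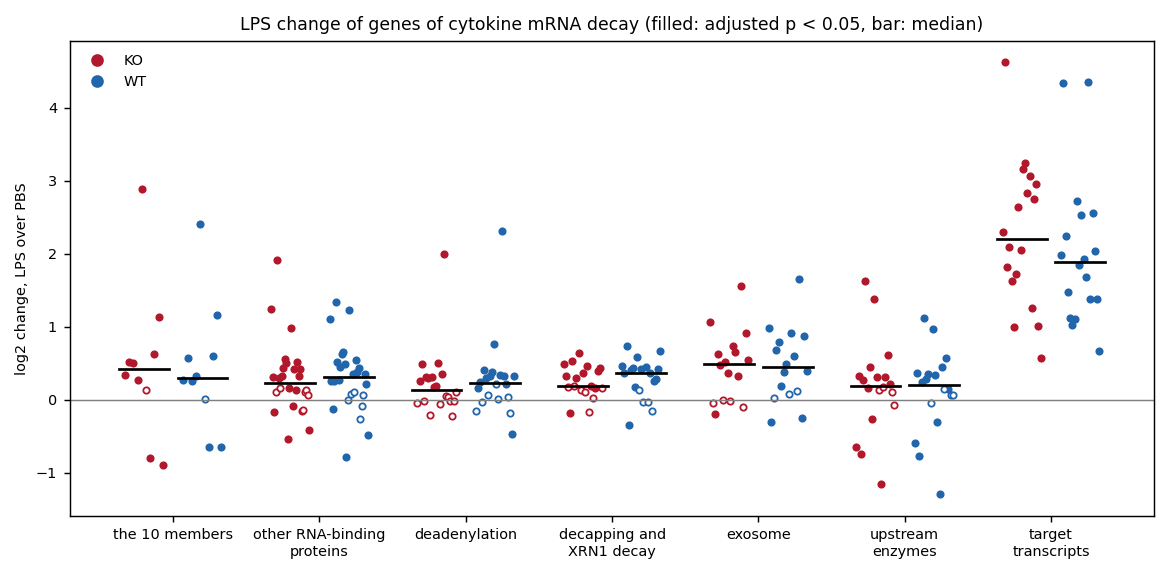
Change with LPS of the 10 genes and of 6 lists of related genes in KO cells (red, left of each pair) and WT cells (blue, right), as log2 of LPS over PBS. Each point is a gene, filled points passed an adjusted p of 0.05, and bars are list medians. The target transcripts have medians of 2.19 in KO cells and 1.89 in WT cells, and the medians of the decay factors lie between 0.14 and 0.49.

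Differences between genotypes in the decay machinery after LPS carry the same confounding with the slide. Deadenylation factors were higher in 3 and lower in 10 of 20 genes in KO LPS, decapping factors higher in 1 and lower in 6 of 19, and exosome genes higher in 2 and lower in 5 of 16, against 20.0% higher and 19.5% lower of all genes. With the slide as a term these became 0 and 2, 0 and 2, and 0 and 0. That fit called 345 higher and 431 lower of all 13283 genes. Cnot6l, a catalytic deadenylase subunit, averaged 3.58 in KO LPS and 4.16 in WT LPS, a difference of -0.58 ± 0.05 (limma adjusted p = 3.1e-05) and of -0.41 ± 0.07 with the slide as a term (adjusted p = 0.0116). Tob2, an adaptor to the complex, differed by -0.64 ± 0.08 (adjusted p = 0.000206), and by -0.68 ± 0.15 with the slide as a term (adjusted p = 0.0264). Xrn1, the 5'-to-3' exonuclease, differed by -0.39 ± 0.07 (adjusted p = 0.00157) and by -0.32 ± 0.11 with the slide term (adjusted p = 0.124). Lsm4, Exosc1 and Exosc6 differed by -0.27 ± 0.05, -0.19 ± 0.04 and -0.25 ± 0.06, and with the slide as a term Lsm4 alone of these was called, at -0.36 (adjusted p = 0.0275).

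The interaction was called for 4 of these list genes, all with a smaller LPS effect in KO cells. They were 2 of 20 deadenylation and 2 of 19 decapping factors, and the other related lists had none. Over all genes 4.31% were called, 0.926% with a higher and 3.39% with a lower LPS effect in KO cells. Cnot6l rose by 0.18 ± 0.05 in KO cells and 0.76 ± 0.05 in WT cells, an interaction of -0.58 ± 0.08 (limma adjusted p = 0.000754). Dcp2, the catalytic decapping enzyme gene, changed by 0.17 ± 0.08 in KO cells and rose by 0.74 ± 0.08 in WT cells, an interaction of -0.57 ± 0.11 (adjusted p = 0.0117). Xrn1 changed by 0.16 ± 0.07 in KO cells and rose by 0.66 ± 0.07 in WT cells (interaction -0.50 ± 0.10, adjusted p = 0.0122). Pabpc1, the cytoplasmic poly(A)-binding protein gene, changed by 0.05 ± 0.04 in KO cells and rose by 0.32 ± 0.04 in WT cells (interaction -0.27 ± 0.06, adjusted p = 0.0202). With the slide as a term Cnot6l, Dcp2 and Pabpc1 were still called, with adjusted p of 0.00394, 0.00195 and 0.0282, and Xrn1 was not (adjusted p = 0.0573).

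Further RNA-binding proteins were higher in 6 and lower in 7 of 26 genes in KO LPS, against 20.0% higher and 19.5% lower of all genes. Among them Igf2bp2 differed by 0.83 ± 0.14 and Khsrp, a decay-promoting protein gene, by 0.31 ± 0.06. Neither was called with the slide as a term (limma adjusted p = 0.244 and 0.471). Malt1 was higher in KO LPS by 0.74 ± 0.10 (adjusted p = 0.000404), and Map2k6, a kinase upstream of p38, by 0.69 ± 0.13 (adjusted p = 0.00192). With the slide as a term they differed by 0.60 (adjusted p = 0.091) and 0.27 (adjusted p = 0.378). Of the target transcripts, 5 were higher and 2 lower in KO LPS. Cxcl1 averaged 8.21 in KO LPS and 6.61 in WT LPS, higher by 1.60 ± 0.11 (adjusted p = 3.42e-06) and by 1.68 ± 0.20 with the slide as a term (adjusted p = 0.00212). Il12b was higher by 0.81 ± 0.16 (adjusted p = 0.0026), and by 1.18 ± 0.23 with the slide term (adjusted p = 0.0181).

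In PBS the calls, higher and lower, were 3 and 1 of 26 further RNA-binding proteins, 1 and 3 of 20 deadenylation factors, 1 and 2 of 19 decapping factors, 0 and 0 of 16 exosome genes, 2 and 0 of 18 enzymes, and 3 and 1 of 18 targets. Over all genes 8.06% were higher and 6.05% lower. Pabpc1 was higher in KO PBS by 0.24 ± 0.04 (limma adjusted p = 0.00351), Mapkapk2, whose kinase product phosphorylates tristetraprolin, by 0.55 ± 0.10 (adjusted p = 0.00401), and Hnrnpa1 by 0.33 ± 0.07 (adjusted p = 0.00823). Btg2, which activates deadenylation, was lower, at -0.33 ± 0.06 (adjusted p = 0.00519), as was Ddx6, at -0.20 ± 0.05 (adjusted p = 0.0237). Among the targets Cxcl1 was higher by 2.03 ± 0.11 (4.10-fold, adjusted p = 6.75e-07) and Tnf by 0.74 ± 0.09 (1.67-fold, adjusted p = 0.000523), while Il6 was lower, at -0.997 ± 0.25 (adjusted p = 0.0222). The third higher target, Il12b, was well above background on 1 KO PBS array and 0 WT PBS arrays. The median over the 18 targets was -0.16, and with the slide as a term 3 were higher and 0 lower. Over all 13283 genes that fit called 1259 higher and 755 lower. Fbxw11, of the ubiquitin ligase that targets Regnase-1, was higher by 0.25 ± 0.06, Dcp2 by 0.29 ± 0.08 and Igf2bp2 by 0.58 ± 0.14. By limma 0 of 16 exosome genes were called in PBS, 3 at an unadjusted p under 0.05.

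The genes whose values followed each member most closely over the 12 arrays are given as a description. The 12 points fall into 4 groups and share their arrays. For Zc3h12a the highest Pearson correlations were with Gtpbp4 (r = 0.997), Ddx21 (r = 0.997) and Dkc1 (r = 0.995). For Zfp36 they were with Loxl2 (r = 0.989), Nrg1 (r = 0.985) and Srgn (r = 0.984), and for Zfp36l1 with Gpbp1, Procr and Srsf11 (r = 0.993 each). Zfp36l2 was closest to Pcyox1 (r = 0.988), Rab3gap2 and Bola1, and Zc3h12d to Rhobtb2, Ptprcap and Pik3ip1 (r = 0.994 each). Zc3h12c was closest to Itpripl2, Itgav (r = 0.971) and Fam102b (r = 0.966). Rc3h1 was closest to Gfm1 (r = 0.981), Ifna14 and Macroh2a2, and Rc3h2 to Hephl1 (r = 0.990), Ythdf2 and Lats1. Hnrnpd was closest to Hnrnpc (r = 0.990), Phf6 and Atf4, and Elavl1 to Tardbp (r = 0.977), Ptpn13 and Mmadhc.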

How the data were processed

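RNA from 12 samples was labelled with Cy3 and hybridised to single-colour Agilent arrays, 3 per group. The deposited scanner tables hold spot intensity values, read with Agilent Feature Extraction 11.5.1.1 per the submitters' processing notes; the processed signal is the one after the scanner software's own background treatment, per the file headers. Each processed signal was divided by its array's 75th percentile and log2 was taken. The percentile was taken over all spots other than controls, outlier-marked ones included. Control spots were left out and the spots of a probe averaged. Outlier-marked spots were left out of that mean unless every spot of the probe was marked. A probe was kept if some group had it well above background in each of its 3 replicates, which left 28827 probes, of which 19066 had a symbol through RefSeq and 9761 had none. The brightest kept probe stood for each of 13283 genes.

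Models were fitted with limma 3.58.1 in R 4.3.3 over all 4 groups, with Benjamini-Hochberg adjustment over all genes and a threshold of 0.05. The script was tested on simulated data. The number of arrays limits the precision. Alternatives covered background correction (normexp with offset 50, on the median signal), normalization, filters, probe rule, slide, replicate block, variance model, samples in the fit and each array left out; the second probe of a gene was an alternative chosen after seeing the data.

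The 10 genes, the 6 related lists and the 5 marker lists (macrophage, B-cell, T-cell, mast-cell, neutrophil) were chosen with earlier results of these data known. All 10 were named; from each related list, up to 4 called genes with the smallest p in each LPS comparison and up to 2 in each other comparison, and per member the 3 genes with the highest Pearson correlation. Summed neutrophil markers lay between 162 and 209, with Cxcr2, Ltf and Ngp well above background on 0 arrays.

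Whether replicate numbers pair samples was checked from the correlation of same-numbered arrays' deviations from their group means. It was 0.105, 0.371 and 0.481 for LPS in WT cells, which meets the rule for pairs (each over 0.1), although WT LPS and PBS arrays numbered 1 did not match each other best. Every value given is from the fit without the block unless the block is named, since it changed no call there. For LPS in KO cells the correlation was 0.0405, 0.113 and 0.0807, and between genotypes it lay between -0.102 and 0.0167, so those arrays were not taken as pairs.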

Additional observations from a re-analysis of the deposited data

How the results depend on the processing

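Over the alternatives 234 of 235 LPS values in KO cells and 239 of 245 in WT cells kept direction and side of the threshold. So did 215 of 245 between genotypes in PBS, 209 of 235 after LPS and 205 of 225 interactions. Some alternatives could alter the spread but not the change, so these counts are not independent checks. For LPS in WT cells these included the slide term, slide 1 alone, the replicate block and leaving out a KO array. The replicate block changed no call for LPS in either genotype (for Zfp36l1 in WT cells the limma adjusted p was 5.61e-06 with it) or for the interaction, and added Zfp36 between genotypes after LPS; between genotypes in PBS, where numbers do not pair samples, it left 0 of the 10 genes and 216 genes in all, against 1874 without it. The count in PBS was 1 with the mean of probes (1757 genes in all) or the slide as a term (2014 in all). It was 0 with only the groups compared (799 genes in all) or slide 1 alone (1087 in all). With 1 array left out it was 0 to 3 (917 to 2579 in all). After LPS the count was 0 with the slide as a term (776 in all) and 3 to 7 with 1 array left out (3762 to 6111 in all). For the interaction it was 0 to 2 with 1 array left out. The interaction had 2797 genes in all without KO PBS replicate 3 and 960 without WT PBS replicate 3, against 573. Without WT PBS replicate 1 or 2 the PBS comparison called 917 and 1043 genes. Slide 1 alone could not serve comparisons that need KO LPS arrays.

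Signs turned as follows, and the cause was not tested. With the second probe, Zfp36l1 was -0.27 for LPS in WT cells, 0.25 for KO against WT in PBS, 0.79 after LPS and 0.54 for the interaction, Rc3h2 0.0129 after LPS and 0.13 for the interaction, and Zc3h12d 0.0421 for the interaction. With the mean of probes, Zfp36l1 was 0.23 after LPS and 0.26 for the interaction, and Rc3h2 0.0391 for the interaction. With quantile normalization, Zc3h12c was -0.0393 for LPS in WT cells, and the interactions of Zfp36l1 and Hnrnpd were 0.0737 and 0.0211. With normexp the interaction of Zfp36 was -0.11. With the slide as a term, Zc3h12a was -0.19 in PBS (also on slide 1 alone), -0.20 after LPS and -0.0169 for the interaction, Elavl1 was 0.0024 in PBS (also on slide 1 alone) and the interaction of Zfp36l1 was 0.0895. Leaving out 1 array gave -0.0945 to 0.1315 for Zc3h12c with LPS in WT cells, -0.19 to 0.20 for Zc3h12a and -0.11 to 0.0083 for Elavl1 in PBS, -0.0118 to 0.0892 for Elavl1 after LPS, and interactions of -0.11 to 0.23 for Zfp36 and -0.13 to 0.0645 for Zfp36l1.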
